A study of Mus musculus with 12 samples.

Results

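The replication-dependent histone genes encode the linker histone H1 and the core histones H2A, H2B, H3 and H4 that package newly copied DNA. They were taken as every row of the deposited count table whose symbol begins with Hist1h, Hist2h, Hist3h or Hist4h, which gave 63 of 25284 genes. Of these, 6 are H1 genes, 16 are H2A, 17 are H2B, 11 are H3 and 13 are H4, and 60 are annotated as protein coding. The genes are written with the symbols of the table, which are older than the present names.

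Histone genes of this kind are switched on when a cell enters S phase, the part of the cell cycle in which DNA is copied, and their transcripts are removed when copying ends. Most of their mRNAs are not given a poly(A) tail: a short hairpin near the end of the message, bound by the stem-loop binding protein SLBP, marks where the transcript is cut and takes the place of the tail. Some genes of the family are known to yield tailed transcripts as well, which do not need a dividing cell. In an adult artery few cells divide, and a library selected for poly(A) would miss much of this family.

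RNA was measured in the thoracic aorta of 12 male ApoE-/- mice on a C57BL/6 background, which lack apolipoprotein E and develop atherosclerosis, and which all received a high fat diet. The control mice (C1 to C6, n = 6) had subcutaneous osmotic minipumps with vehicle, and the AZ6983 mice (A1 to A6, n = 6) had pumps that gave the α7 nicotinic acetylcholine receptor agonist AZ6983 at 50 µmol per kg per day. Treatment lasted 8 weeks and the mice were 18 weeks old at the end. Each mouse gave 1 library of total RNA from which ribosomal RNA had been removed, with no selection for poly(A), and whole aorta mixes the vessel wall with blood cells and attached tissue. The libraries hold 23810036 to 35864666 counts on genes.

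The hairpin at the 3′ end was looked for in the gene models of GENCODE M21 on GRCm38, which is mm10, the build of the deposited counts. A stem of 6 bases that opens with GG and closes with CC around a loop of 4 bases was present after the stop codon in 42 of the 60 protein coding genes. The models of 15 of the other 18 end less than 60 bases after the stop codon, so a hairpin may lie beyond their end. A model that short can still hold one, as that of Hist1h4m does with 52 bases. Hist1h2bc, Hist2h2be and Hist1h2bq have 60 bases or more and show none in the annotated transcript. The commonest forms are shown because they are the feature that sets this family apart, with the stem in capitals and the loop in lower case.
22 genes of H1, H2A, H2B and H3, such as Hist1h1c and Hist1h3d: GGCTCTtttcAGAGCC
7 genes of H4, such as Hist1h4d and Hist1h4h: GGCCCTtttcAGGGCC
6 genes of H1, H2B and H3, such as Hist1h2bk and Hist1h3f: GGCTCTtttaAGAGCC
2 genes of H4, Hist1h4i and Hist2h4: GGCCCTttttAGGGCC
2 genes of H4, Hist1h4b and Hist1h4j: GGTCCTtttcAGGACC
Wherever a hairpin was found, the stem opened with GGCTCT in H1, H2A, H2B and H3 genes and with GGCCCT or GGTCCT in H4 genes.

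Promoters from RefSeq on GRCm38.p6, 250 bases before to 50 after the start, were found for 55 of the 63 genes. CCAAT on either strand, the box bound by NF-Y, was in 46 of them (83.6%) against 37.4% of all 32851 promoters of that length. TATAAA on either strand was in 32 (58.2%, against 13.6%). ATTTGCAT on either strand, the octamer bound by OCT1, was in 12 (21.8%, against 1.74%), which were 6 of 14 H2A and 6 of 14 H2B genes. CCAAT was in every promoter found for H1, H2A, H2B and H3 genes, but in 3 of 12 for H4 (25%). A CCAAT box can share its last 2 bases with the start of an octamer. The 140 bases before the start are shown for 4 genes whose levels are described further on, with matches to the 3 motifs in capitals; the Hist1h2ac stretch lies in the gap between Hist1h2ac and Hist1h2bc, which are read away from each other. They lie at chr13:23763528-23763667 on the plus strand for Hist1h1a, chr13:23683960-23684099 on the minus strand for Hist1h2ac, chr13:21750554-21750693 on the minus strand for Hist1h4k and chr13:23530904-23531043 on the plus strand for Hist1h4h.
Hist1h1a: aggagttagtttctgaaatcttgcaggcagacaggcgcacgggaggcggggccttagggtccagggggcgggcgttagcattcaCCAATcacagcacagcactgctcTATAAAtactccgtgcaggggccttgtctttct
Hist1h2ac: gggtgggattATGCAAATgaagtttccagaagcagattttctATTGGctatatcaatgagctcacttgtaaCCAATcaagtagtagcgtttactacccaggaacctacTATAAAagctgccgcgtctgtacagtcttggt
Hist1h4k: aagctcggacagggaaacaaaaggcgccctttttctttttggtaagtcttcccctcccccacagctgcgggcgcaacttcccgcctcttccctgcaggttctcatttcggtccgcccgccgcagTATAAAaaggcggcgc
Hist1h4h: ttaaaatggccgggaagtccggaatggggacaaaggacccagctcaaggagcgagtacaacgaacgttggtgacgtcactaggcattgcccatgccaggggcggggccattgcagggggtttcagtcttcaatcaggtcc
A match describes the letters and no binding was measured.

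One library stood apart and it was an AZ6983 library. In mouse A4 the 63 genes took 69642 counts, 0.194% of all counts on genes, against 10917 to 17714 counts and 0.0392% to 0.0618% in the other 11 mice. Mki67, a protein gene of dividing cells, was at 138 CPM in A4 and at 9.97 to 23.6 in the others. CPM here is the count per 1000000 counts on genes, scaled between libraries by TMM. The summed CPM of 14 thymocyte markers was 1349 in A4 and 48.4 to 114 in the others, with 13 of the 14 highest in A4. Rag1, which cuts the antigen receptor genes in developing lymphocytes, was at 576 CPM in A4 against 0.149 to 21.3. Markers of B cells, neutrophils, macrophages, endothelium, brown fat and aortic smooth muscle were not highest in A4 for any gene of those lists, and 2 of 8 erythroid markers were. The 6 smooth muscle markers summed to 15940 CPM in A4, within the 10220 to 17610 of the others, so all libraries carried the RNA of arterial muscle. Every result below is therefore given with and without A4; the part of thymocyte RNA in the values of A4 was not tested.

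In the other 11 mice the family was a small and uneven part of aortic RNA. Its summed level was 404 to 618 CPM, with a median of 481, and the 5 genes with the highest CPM, Hist1h1c, Hist1h4d, Hist1h2bc, Hist1h4h and Hist1h1e, made up 54.0% to 64.2% of it. The 10 with the highest CPM made up 72.7% to 80.8%. In A4 those 5 genes made up 29.01% and those 10 made up 42.3%. CPM counts reads and not transcripts, so genes are ranked below per kilobase of coding sequence.

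Per coding kilobase, the order in the 11 mice was led by Hist1h4d with a median of 184 CPM per kilobase. Hist1h4h followed at 144, Hist1h2bc at 141 and Hist1h1c, an H1 gene, at 141. These last 3 did not differ beyond the spread between mice, since Hist1h2bc alone ran from 36.2 to 72.5 CPM around a median of 53.7. Hist1h4c came next at 91.9, then Hist1h1e at 59.5, Hist1h2be at 43.2, Hist2h4 at 42.2 and Hist2h2be at 38.0. The order depended on the length used: with all annotated exon bases in place of the coding part, Hist1h4h came first at 95.5 CPM per kilobase and Hist1h2be fell from place 7 to place 27, as its model covers 4446 exon bases. No H2A or H3 gene was among the 10 highest per coding kilobase, but Hist2h2ac, an H2A gene, was in place 11 and in place 8 by exon bases.

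Read by histone type, H4 genes took 46.2% of the CPM per coding kilobase in the 11 mice (median), H2B genes 25.3%, H1 genes 18.9%, H2A genes 4.88% and H3 genes 4.70%. A nucleosome holds the same number of each core histone, so these shares of RNA were not the proportions of the proteins. Reads that could not be given to 1 place were set aside before counting, and the H2A and H3 genes share the most sequence: by type, the median gene had 64.0% of its 75-base stretches also in another transcript for H2A and 58.6% for H3, against 36.9% for H2B, 24.6% for H4 and 0.735% for H1. These values also count stretches shared with an overlapping gene model at the same place, as with Gm20628 for Hist2h2bb. Reads came in pairs, which a single stretch does not describe, so the values are no measure of reads lost. Reads that fit more than 1 gene were set aside too. Exons of all 16 H2A genes overlap another gene model of GENCODE M21 on either strand, as Gm44484 does for Hist1h2ab. In the other types only Hist1h1e, Hist1h2be, Hist2h2bb, Hist2h3b and Hist1h4b have such an overlap. Whether the counting used these models is not given. How much each gene lost in these ways was not tested, and the levels of H2A and H3 are uncertain for these reasons.

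By cluster, the 51 genes named Hist1 gave a median of 421 CPM, 87.5% of the family. Of these, 50 lie at chr13:21715763-23764406, and the pseudogene Hist1h2al lies apart at chr13:51202727-51203065. The 8 Hist2 genes at chr3:96219865-96270132 gave 50.8 CPM, led by Hist2h2be at 14.5 and Hist2h4 at 13.2. The 3 Hist3 genes at chr11:58948920-58956830 gave 4.15 CPM, most of it from Hist3h2a at 3.37. Hist4h4, the single gene at chr6:136801553-136804415, was at 5.17 CPM.

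Of the 63 genes, 54 passed the filter on low counts and were tested among 15857 genes. The other 9 were Hist1h1t, Hist1h2ag, Hist1h2ah, Hist1h2aj, Hist1h2al, Hist1h2bp, Hist1h2bq, Hist2h2aa2 and Hist3h2bb-ps, of which none had more than 13 counts in any mouse but A4. Hist1h1t, the H1 gene of the testis, had 0 to 3 counts in the 11 mice and 1 in A4.

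**Figure D1:**
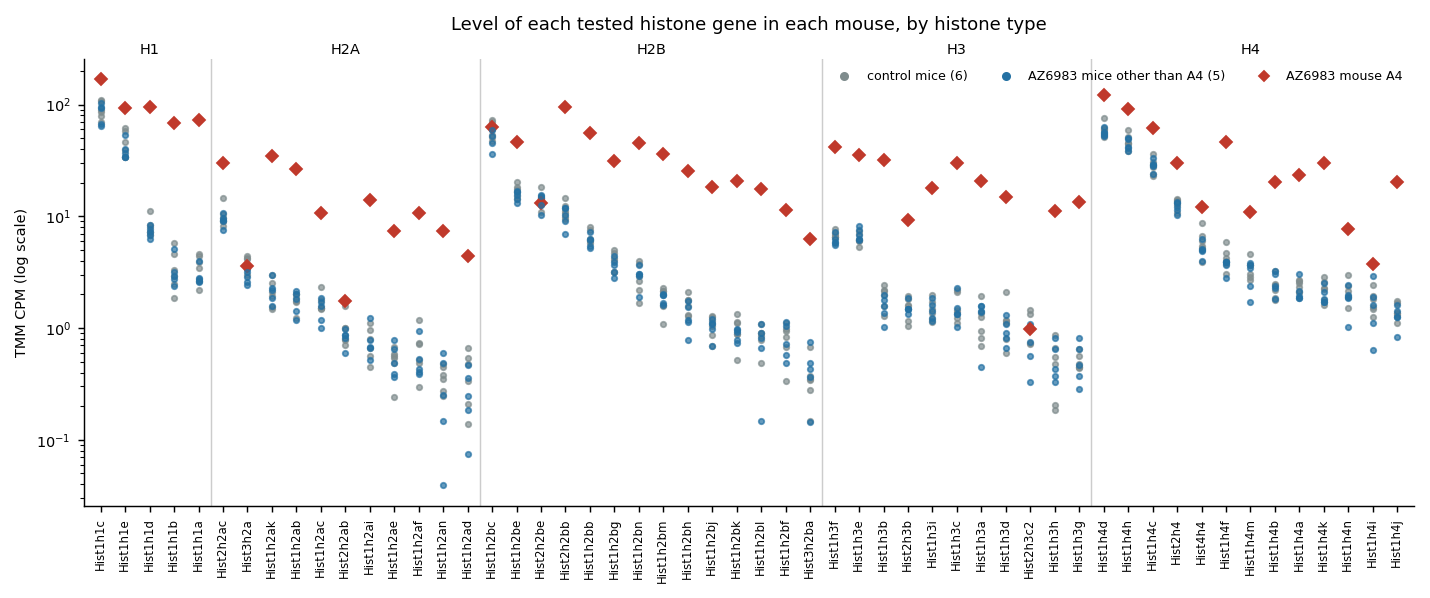
CPM of each of the 54 tested histone genes (log scale) in each of the 12 mice, grouped by histone type and ordered within a type by the median of the 11 mice other than A4. Diamonds mark A4, which lies far above the other mice for most genes, from 28.8 times their median for Hist1h3g down to 0.905 times for Hist2h2be.

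Mouse A4 was not raised evenly over the family. Its summed level was 1853 CPM, 3.85 times the median of the other mice. Relative to that median, A4 was at 10 times or more in 29 of the 54 tested genes, where 0.851% of all genes tested reached that ratio. It was at 3 times or more in 40 (2.79% of all genes) and at 2 times or more in 49 (4.98%). In 50 of the 54, A4 was above every other mouse, against 15.4% of all genes. The median ratio was 12.3 over the 54 genes and 0.997 over all genes. Among the 29, Hist1h2ad, Hist1h2an and Hist3h2ba passed the filter on counts over the 12 mice only because A4 was counted. All 54 also passed the filter applied without A4, which asks for fewer mice. The ratios are values of 1 mouse and carry no test.

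As sums, the histone types differed in the ratio, and H3 and H2A, with the lowest sums in the other mice, had the highest ratios. Summed over genes, H3 was at 228 CPM in A4 and 21.04 to 28.3 in the others, a ratio of 10.1. H2A was at 159 against 18.4 to 30.2, a ratio of 7.10. H2B was at 490 against 100 to 150, a ratio of 4.32, and H1 was at 498 against 110 to 192, a ratio of 3.48. H4 was at 478 against 146 to 218, a ratio of 2.83. Gene by gene the order was another: the median ratio was 14.7 for H2B, 13.8 for H3, 13.5 for H2A and 13.0 for H1, and H4 alone was far from these, at 3.18. Per coding kilobase, H3 moved from 4.70% of the family in the other mice to 12.2% in A4 and H2A from 4.88% to 8.94%, while H4 went from 46.2% to 33.8%.

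**Figure D2:**
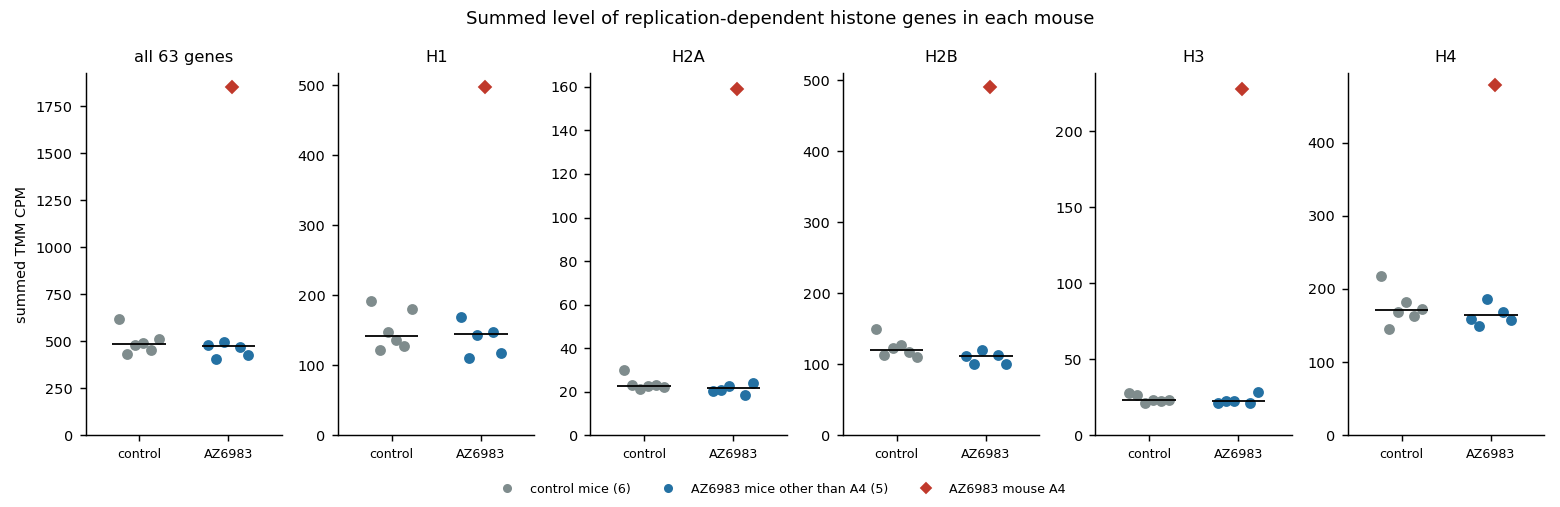
Summed CPM of all 63 genes and of each histone type in each mouse, with a line at the median of each group of 6; each panel has its own linear scale from 0. A4 is above every other mouse in all 6 panels, by 10.1 times the median of the others for H3 and 2.83 times for H4, while the other 5 AZ6983 mice and the 6 control mice overlap.

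Among the H1 genes, Hist1h1a was at 72.3 CPM in A4 (2716 counts) and at 2.17, 2.82 and 4.64 CPM in the lowest, median and highest of the others, a ratio of 25.6. Hist1h1b, at 68.2 CPM against 1.86 to 5.73, was at 23.1 times their median, and Hist1h1d, at 94.5 against 6.29 to 11.2, was at 13.0 times. Hist1h1e was at 93.9 CPM against 33.7 to 61.2, a ratio of 2.39, and Hist1h1c was at 169 against 64.3 to 110, a ratio of 1.88. The 5 tested genes of 1 protein type thus spanned ratios from 1.88 to 25.6, and the 3 with low levels in the aorta were the 3 with high ratios. In A4 the 4 genes other than Hist1h1c lay between 68.2 and 94.5 CPM, while in the other mice their medians lay between 2.82 and 39.3.

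Among the core histones, Hist1h3g reached the highest ratio of the 54, 28.8, at 13.5 CPM in A4 against 0.286, 0.470 and 0.820 in the lowest, median and highest of the others, where it rests on 7 to 22 counts. Hist1h2bn was at 45.7 CPM against 1.67, 2.93 and 3.95, a ratio of 15.6. Hist1h2ak, its divergent H2A neighbour, was at 34.6 CPM against 1.49, 2.12 and 3.005, a ratio of 16.4. Hist1h4k was at 30.2 against 1.62, 2.09 and 2.88, a ratio of 14.5. In each of these 4 genes A4 was above every other mouse.

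At the other end, 14 genes were under 3 times. Hist2h2be was at 13.1 CPM in A4 against 10.2, 14.5 and 18.4, a ratio of 0.905, and Hist2h3c2 was at 0.984 CPM, a ratio of 1.008. Hist3h2a was at 3.57 against 2.41, 3.37 and 4.38, a ratio of 1.06, and Hist1h2bc was at 62.9 against 36.2, 53.7 and 72.5, a ratio of 1.17. For these 4 genes A4 lay inside the range of the other mice. The remaining 10 lay between 1.88 and 2.81 times, and among them were the abundant H4 genes Hist1h4h at 2.02, Hist1h4d at 2.12, Hist1h4c at 2.16 and Hist2h4 at 2.26. The 14 genes held 79.3% of the family's CPM in the other mice (median) and 38.4% in A4, whereas the 29 genes at 10 times or more held 9.81% and 42.2%.

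The clusters were not alike in this. In the Hist1 cluster 28 of 44 tested genes were at 10 times or more, with a median ratio of 13.7. In the Hist2 cluster it was 0 of 7, with a median ratio of 2.26 and the highest in Hist2h2bb at 8.76. In Hist3 the ratio was 17.1 for Hist3h2ba and 1.06 for Hist3h2a, and Hist4h4 was at 2.36. Counts in some of the low-ratio genes can come from neighbours: the models of Hist1h1e and Hist1h2be share exon bases with each other, and that of Hist3h2a with Trim17. The reads of these pairs may have been set aside, and the strand setting of the counting is not given in the sources used here.

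Pairs of H2A and H2B genes that lie head to head, 175 to 301 bases apart between their annotated ends, were 9 in all. In 7 of them both members were at 7.91 times or more in A4: Hist1h2ai at 20.6 beside Hist1h2bl at 20.4, Hist1h2ak at 16.4 beside Hist1h2bn at 15.6, Hist1h2ad at 13.1 beside Hist1h2bf at 13.8, Hist1h2ae at 13.5 beside Hist1h2bg at 7.91, and 3 pairs in which 1 gene was under the filter on counts. In the other 2 the members parted. Hist1h2ac was at 7.08 times and Hist1h2bc at 1.17, and Hist2h2ac was at 3.25 times and Hist2h2be at 0.905. Per coding kilobase, Hist1h2bc was at 141 CPM in the other mice against 3.88 for Hist1h2ac, and Hist2h2be at 38.0 against 23.8 for Hist2h2ac. Both H2B genes are among the 3 with 60 or more annotated bases after the stop codon and no hairpin in them.

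The annotated end of a gene moved with its ratio. In 17 tested genes whose model ends less than 100 bases after the hairpin, A4 was at 2.02 to 28.8 times the others with a median of 13.8. In 10 genes with 100 to under 500 further bases the median was 7.17, and in 11 genes with 500 or more it was 2.39, with a range of 1.06 to 16.4. The last group held 7 of the 14 genes under 3 times and its median level in the other mice was 7.27 CPM, against 1.83 in the first. In the 16 genes with no hairpin in the model, most of which end near the stop codon, it ran from 0.905 to 25.6, with 11 at 10 times or more. Over the 38 genes with a hairpin, Spearman's rho between the ratio and the bases after it was -0.42. Over all 54 genes rho was -0.63 between the ratio and the median level in the other 11 mice. That median is also the divisor of the ratio, so a negative rho is partly built in and is no separate result. Both rho values are descriptions over genes of 1 mouse, which share its library, and a gene model is not a measured transcript end.

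**Figure D3:**
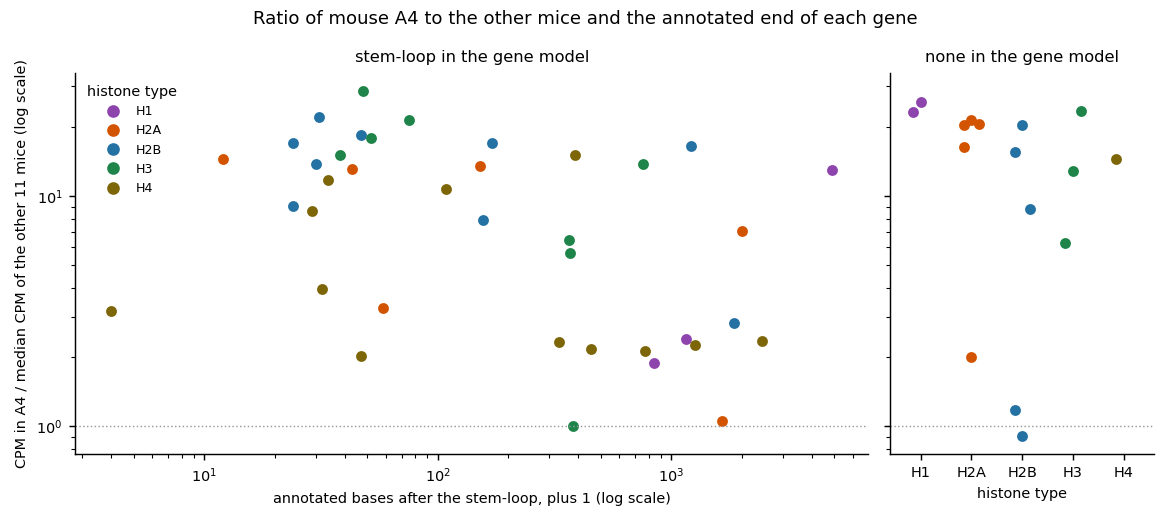
Ratio of the CPM in A4 to the median of the other 11 mice for each tested gene (log scale), against the annotated bases after the 3′ hairpin plus 1 (log scale, left, 38 genes) or by histone type where the model holds no hairpin (right, 16 genes). Colours give the histone type and the dotted line is a ratio of 1; the median ratio is 13.8 in genes with under 100 such bases and 2.39 in those with 500 or more.

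To relate the family to dividing cells in each mouse, the level of every gene was fitted on log2 CPM of Mki67 with the treatment group in the model (edgeR quasi-likelihood test, Benjamini-Hochberg adjustment, 10% FDR). A slope of 1 means that a gene doubles when Mki67 doubles. Over the 12 mice 43 of the 54 genes had a slope past the threshold, where 4.48% of all genes did, and all 43 slopes were positive (4.43% of all genes). The median slope over the 54 was 1.02. By type, 3 of 5 H1 genes were called, 9 of 11 H2A, 12 of 14 H2B, 10 of 11 H3 and 9 of 13 H4. The smallest p belonged to Hist1h3d, with a slope of 1.22 ± 0.0862 (SE, adjusted p = 1.6e-05), and Hist1h2bn followed with 1.19 ± 0.0852 (adjusted p = 1.6e-05). The 11 genes not called were Hist1h1c, Hist1h1e, Hist1h2bc, Hist1h4c, Hist1h4h, Hist1h4i, Hist2h2ab, Hist2h2be, Hist2h3c2, Hist3h2a and Hist4h4, with slopes from -0.08 to 0.28.

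These calls rested on A4. Without it 0 of the 54 genes passed the threshold by edgeR (0% of all genes), and the median slope was 0.12. At an unadjusted p under 0.05 there were then 6 genes with a positive slope, Hist1h3d, Hist1h2bn, Hist1h4k, Hist1h2ai, Hist1h2ae and Hist1h2af, where 9.17% of all genes had one. There were 8 with a negative slope, Hist1h1c, Hist1h1e, Hist1h2bc, Hist1h4c, Hist1h4h, Hist2h2be, Hist2h4 and Hist4h4, where 5.06% of all genes had one. Hist1h3d had a slope of 0.97 ± 0.28 (SE, adjusted p = 0.20) and Hist1h1c one of -0.54 ± 0.15 (SE, adjusted p = 0.20). DESeq2, fitted to the same 11 mice after the edgeR result was seen, called 3 of the 56 to which it gave an adjusted p, where it called 3% of all genes, and all 3 slopes were negative (0.747% of all genes): Hist2h2be, at -0.52 ± 0.14 (SE, adjusted p = 0.028), Hist1h1c, at -0.54 ± 0.16 (adjusted p = 0.04998), and Hist1h4c, at -0.43 ± 0.13 (adjusted p = 0.0557).

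Genes with a higher ratio in A4 tended to have a higher slope in the 11 mice, a fit that did not contain A4. Over the 54 genes Spearman's rho between both was 0.81. Both values draw on those 11 mice, whose median divides the ratio, and the 54 genes share their libraries. This rho is therefore a description and carries no test. The sign did not follow in every gene: Hist1h4j, at 15.1 times in A4, had a slope of -0.18, and Hist1h1d, Hist1h4f and Hist1h4a were also at 10 times or more with a negative slope. The 6 genes with a positive slope at an unadjusted p under 0.05 were at 13.5 to 20.6 times in A4. The 8 with a negative slope at that limit were at 0.905 to 2.39 times. Such slopes were found in 9.17% and 5.06% of all genes, and no histone gene was called in that edgeR fit. The share of reads that fell on no gene also went with Mki67 in the 11 mice, however (Pearson's r = 0.74, rho = 0.76). Over the 54 genes rho between the ratio in A4 and a gene's r with that share was 0.75. The part of that share in the slopes was not tested.

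As sums, the family did not follow Mki67 outside A4. Over the 12 mice the summed CPM of the 63 genes had r = 0.97 with Mki67 but rho = -0.32. Without A4 it was r = -0.69 and rho = -0.72 over 11 mice, and within the 6 control mice r = -0.62. Without the 2 mice farthest from the median of Mki67, A4 and C2, it was r = -0.70 over 10, so the positive r rested on A4. The summed CPM was lowest in A2, at 404, and was 432 in C2, and these were the 2 mice with the highest Mki67 after A4, at 21.8 and 23.6 CPM. It was highest in C1, at 618, where Mki67 was 11.02. C1 had the lowest share of reads outside genes, 8.02%, and A2 the highest, 14.9%, and over the 11 mice that share had r = -0.82 with the summed CPM.

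The sum held groups of genes with different values. The 29 genes at 10 times or more in A4 summed to 37.6 to 61.6 CPM in the other mice, with r = 0.46 and rho = 0.51 against Mki67, and the sum was highest in C2, at 61.6. Without C2 this fell to r = 0.22 and rho = 0.35 over 10 mice. Its r over the 11 mice with the share of reads outside genes was 0.046. The 14 genes under 3 times summed to 306 to 485 CPM, with r = -0.79 and rho = -0.73 against Mki67 and r = -0.83 against that share. By type, the H3 sum had r = 0.33 with Mki67 in the 11 mice (0.11 without C2), H2A -0.13, H2B -0.60, H1 -0.67 and H4 -0.68. The share of reads with more than 1 alignment, which were set aside before counting, went with several of these sums as closely: its r was 0.87 for H2B, 0.76 for H4, 0.49 for H1 and 0.73 for all 63 genes, but -0.062 for H3. For the 14 genes under 3 times it was 0.75 and for the 29 at 10 times or more -0.081. The part of that share in the sums was not tested. These correlations are descriptions over 11 mice with no test, and the groups of genes were set by A4.

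**Figure D4:**
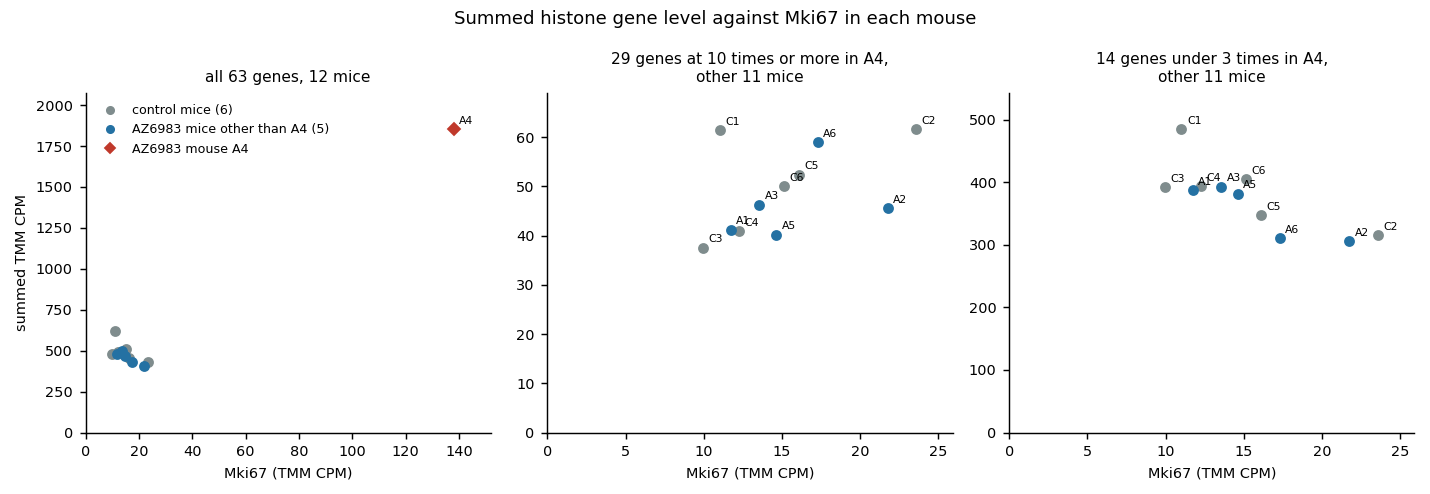
Summed CPM against CPM of Mki67 in each mouse on linear scales from 0, for all 63 genes in 12 mice (left), the 29 genes at 10 times or more in A4 in the other 11 mice (middle) and the 14 genes under 3 times in A4 in the other 11 mice (right). The left panel shows A4 alone at 138 CPM of Mki67; among the other mice r was 0.46 in the middle panel (0.22 without C2) and -0.79 in the right one.

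Other genes of the cell cycle and of histone handling, taken from lists, were compared in the same fits. All 19 tested mitosis genes other than Mki67 had a called positive slope over the 12 mice (4.43% of all genes), with a median of 0.83. So did 15 of 20 genes of S phase and replication licensing, with a median of 0.31. Top2a, which untangles copied DNA, had a slope of 1.04 ± 0.0571 (SE) and was at 126 CPM in A4 against 6.72 to 15.6. Pcna, the clamp of the DNA polymerases, had one of 0.23 and was at 65.4 CPM against 31.9 to 40.8. Relative to the median of the others, A4 was thus at 1.77 times for Pcna and 11.4 times for Top2a, with the histone genes at 12.3 times in the median. Without A4 none of these was called (edgeR, 10% FDR). At an unadjusted p under 0.05, 6 of the 19 mitosis genes and 2 of the 20 S phase genes then had a positive slope. Such a slope was found in 9.17% of all genes, so the S phase count was near that share.

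Of 14 genes that transcribe histone genes or cut their messages, 2 were called with a positive slope (4.43% of all genes). They were Casp8ap2, which takes part in the cutting, at 0.13 and Eri1, an exonuclease that acts on the histone hairpin, at 0.17. Slbp was at 26.8 CPM in A4 against 17.8 to 24.8, a ratio of 1.39, with a slope of 0.10 that was not called (adjusted p = 0.38). Npat, the activator of histone genes in S phase, was at 40.1 CPM against 30.7 to 37.9, a ratio of 1.14, also not called (adjusted p = 0.73). Lsm10 and Lsm11, parts of the particle that recognises histone pre-mRNA, were at 1.06 and 1.11 times.

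Of 11 genes of replication-independent histones and histone variants, 4 were called (4.48% of all genes). H2afx, which marks broken DNA when phosphorylated, had a slope of 0.70 and was at 30.4 CPM in A4 against 4.70 to 6.34. Cenpa, the H3 variant of centromeres, had a slope of 0.33, H2afz one of 0.18 and H2afy one of 0.14. H3f3a and H3f3b, which encode H3.3, were at 1.16 and 1.30 times and H1f0, the H1 of resting cells, at 0.829 times, none of them called. Of 10 histone chaperones 4 were called (4.48% of all genes): Chaf1b at 0.53, Asf1b at 0.48, Chaf1a at 0.37 and Nasp at 0.21. No gene of these 3 lists was called without A4, and none in either direction between AZ6983 and control mice.

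The study compared AZ6983 with control mice. For the histone genes this comparison gave 0 of 54 called in either direction at 10% FDR (edgeR; 0% of all genes). At an unadjusted p under 0.05 there were 20 higher in AZ6983 mice (7.38% of all genes) and 1 lower (2.81% of all genes). Limma-voom gave 0 higher (6.62% of all genes) and 1 lower (2.92%) at that limit. DESeq2 gave no p for 41 of the 63 genes, and an adjusted p for 18, of which 0 were called. The median log2 fold change of the 54 was 1.32, against 0.0090 for all genes, and 50 of 54 were positive. No gene separated the 6 AZ6983 mice from the 6 controls without overlap (0.41% of all genes did), nor did any without A4 (0.656%).

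The higher levels were those of A4. Without it 0 of the 54 were called (edgeR, 0% of all genes). At an unadjusted p under 0.05, 0 were higher and 1 was lower (7.04% and 2.45% of all genes). The median log2 fold change was -0.15, against -0.0025 for all genes, with 13 positive and 41 negative. The genes share their libraries, so these signs are not independent. Hist1h3g went from 2.42 ± 0.94 (SE, adjusted p = 0.45) to 0.041 ± 0.27 (adjusted p = 0.97), and Hist1h1a from 2.05 ± 0.89 to -0.26 ± 0.21. Hist1h2bm, at 1.08, 1.86 and 2.29 CPM in the lowest, median and highest control and 1.59, 1.96 and 2.01 in the 5 AZ6983 mice other than A4, went from 2.07 ± 0.83 to 0.027 ± 0.20. The standard errors were smaller without A4 in these 3 genes.

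Summed levels gave the same account. The 63 genes summed to 498 ± 65.0 CPM in controls (SD, n = 6) and 689 ± 571 in AZ6983 mice (SD, n = 6), or 456 ± 38.2 without A4 (SD, n = 5). Controls ran from 432 to 618 and the 5 AZ6983 mice from 404 to 495, so the groups overlapped. For H3 the sums were 24.1 ± 2.53 CPM in controls and 23.1 ± 2.96 in the 5 mice, for H2A 23.8 ± 3.23 and 21.3 ± 2.26, for H2B 124 ± 14.3 and 109 ± 8.497, for H4 175 ± 24.2 and 164 ± 14.1, and for H1 151 ± 28.9 and 138 ± 23.8. In bulk tissue, fewer cells of a type and less RNA per cell cannot be told apart in such sums.

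The gene with the lowest unadjusted p without A4 was Hist3h2a, an H2A gene of the Hist3 cluster and the 1 gene lower at an unadjusted p under 0.05 in both fits. It was at 3.005, 3.85 and 4.38 CPM in the lowest, median and highest control, and at 2.41, 2.86 and 3.37 in the 5 AZ6983 mice, with 67 to 127 counts. The groups overlapped. Its log2 fold change was -0.34 ± 0.14 over 12 mice (SE, adjusted p = 0.47) and -0.40 ± 0.14 without A4 (adjusted p = 0.45). Over 12 mice limma-voom gave it -0.33 (adjusted p = 0.48) and DESeq2 -0.35 (adjusted p = 0.36). In 30.7% of its 75-base stretches the sequence also occurs in another transcript, chiefly of Trim17.

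**Figure D5:**
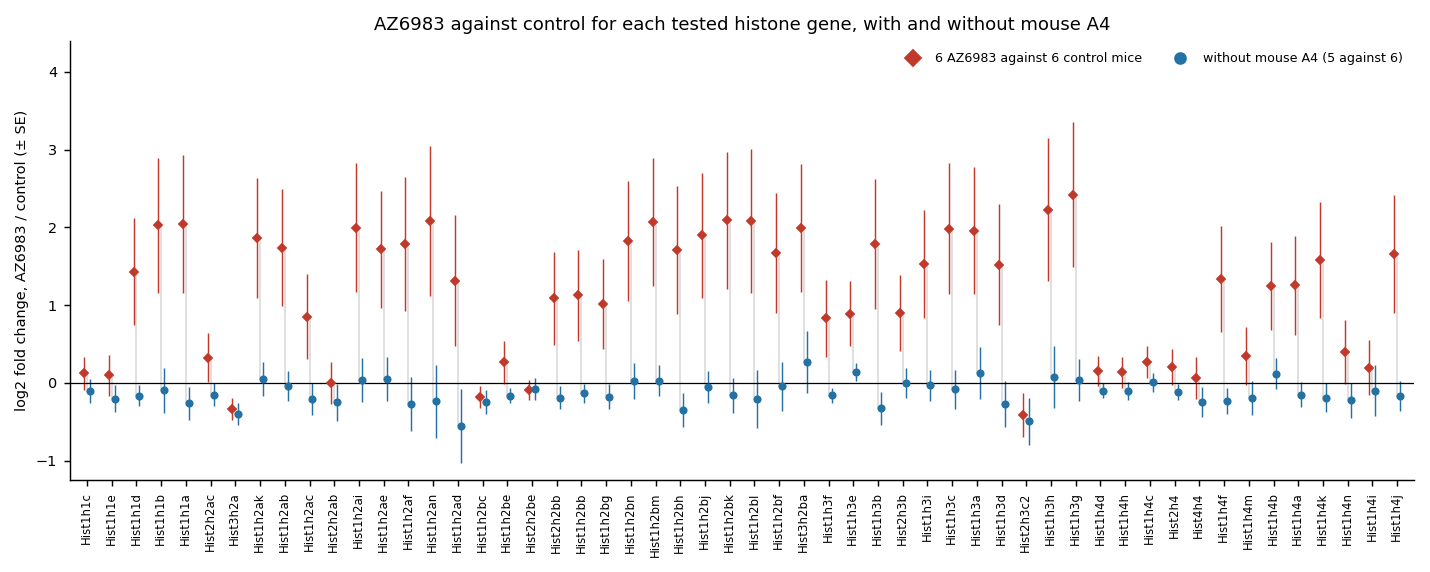
Log2 fold change of AZ6983 over control mice with its standard error for each of the 54 tested genes, ordered as in the plot of CPM by mouse, over all 12 mice (diamonds) and without A4 (circles). The median is 1.32 with A4 and -0.15 without it, and no gene was called in either fit.

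The share of reads on no gene was itself higher in AZ6983 mice, at 12.8% ± 1.36 (SD, n = 6) against 10.1% ± 1.55 (SD, n = 6), with p = 0.0108 by a two-sided exact permutation test and p = 0.0152 without A4. With this share added as a covariate and without A4, a fit added after the other results were seen, 0 of 54 genes were called by edgeR and 6 had an unadjusted p under 0.05, each with an adjusted p of 1. These were Hist2h2be, Hist1h4c and Hist1h1c, positive at 0.37, 0.36 and 0.33 (1.81% of all genes), and Hist1h3d, Hist1h2bh and Hist1h2af, negative at -0.89, -0.72 and -0.97 (1.15%). Mki67 did not separate the groups (p = 0.33 over 12 mice and p = 0.67 without A4, exact permutation test, two-sided), with 13.7 CPM in the median control and 14.6 in the median of the 5 AZ6983 mice.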

How the data were processed

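RNA of 12 aortas was sequenced by the authors from stranded libraries depleted of ribosomal RNA. The authors deposited whole-number counts per gene symbol, not normalized; the submitters' processing notes name CASAVA 1.8.2, STAR 2.5.2b, HTSeq 0.6.1p1 and mm10, and the annotation and strand setting are not given in the sources used here. The table has 3 rows that name no gene, left out of library sizes and tests: reads outside genes (8.02% to 14.9% per mouse of everything counted), reads with more than 1 alignment (18.1% to 23.2%) and reads that fit more than 1 gene (0.606% to 0.698%). Groups came from the sample titles; 11 columns match a mouse number in full, and the column of A1 holds 3 of its 4 digits. The labels give no batch.

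The quasi-likelihood test of edgeR 4.0.16 (R 4.3.3) was run on the counts (TMM, filterByExpr, Benjamini-Hochberg adjustment over all genes tested, 10% FDR), for AZ6983 against control and for the slope on log2 CPM of Mki67 (prior count 2) with group as covariate. Alternatives were DESeq2 1.42.0, limma-voom 3.58.1, other scalings, filters and covariates, and leaving out each mouse. Gene models and hairpins came from GENCODE M21 and promoters from RefSeq (GRCm38.p6), matched through synonyms; 7 further symbols of the kind in GENCODE have no row in the table. Stretches of 75 bases, the read length, were counted as shared where another transcript holds them.

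Named singly were the 12 members with the smallest p among those called, the 12 highest by mean CPM, the leading member of each type in each cluster, the 10 with the smallest p under 0.05 between groups, and testis histones. Others were named after their values were seen. Members and lists were chosen with earlier results of these data known.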

Additional observations from a re-analysis of the deposited data

Results flagged for a closer look

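Within each group of 6 mice, the highest or lowest value was called far from the rest where its gap to the next mouse exceeded the Dixon limit of the range, a limit that chance passes in about 1 of 20 groups. Of 90 groups looked at (log2 CPM of named histone genes, sums and Mki67, in each treatment group), 39 passed. Chance gives about 4.5 for groups taken without regard to their values, and these groups are not independent because many hold the same mouse. Many of the genes were also named for calls or p-values that rested on A4. The flags of A4 were thus partly set by that choice, and 4.5 is no fair expectation for them. In 36 of the 39 the mouse was A4, always as the highest of the AZ6983 mice. Its log2 CPM was 6.92 for Hist1h4d, 6.56 for Hist2h2bb, 6.56 for Hist1h1d, 6.501 for Hist1h4h, 6.18 for Hist1h1a, 5.95 for Hist1h4c, 5.53 for Hist1h2be, 5.52 for Hist1h2bn, 5.39 for Hist1h3f, 5.17 for Hist1h2bm, 5.12 for Hist1h2ak, 5.01 for Hist1h3b, 4.92 for Hist2h2ac, 4.92 for Hist1h4k, 4.90 for Hist2h4, 4.73 for Hist1h2ab, 4.67 for Hist1h2bh, 4.37 for Hist1h3a, 4.36 for Hist1h2bk, 3.904 for Hist1h3d, 3.82 for Hist1h2ai, 3.77 for Hist1h3g, 3.48 for Hist1h3h, 3.42 for Hist1h2af, 3.23 for Hist2h3b and 2.89 for Hist1h2ae. As summed level, on the log2 scale, it was 10.86 for all 63 genes, 8.96 for H1, 7.32 for H2A, 8.94 for H2B, 7.83 for H3, 8.90 for H4, 10.69 for Hist1, 7.49 for Hist2 and 3.61 for Hist3. Mki67 was at 7.11. The 3 others were in control mice: C3 was lowest for Hist1h2ae, at -1.68 against -0.84 to -0.43, and for Hist1h2ab, at 0.39 against 0.82 to 1.06, and C1 was highest for the H2A sum, at 4.92 against 4.41 to 4.54. Leaving C1 or C3 out called no histone gene between AZ6983 and control.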

How the results depend on the processing

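Leaving out 1 mouse at a time, as a check that no single library made a result, turned directions, and the fit without A4 gives the lowest value of every range of a fold change, slope, ratio or correlation here. The log2 fold change of AZ6983 over control ran over these fits from -0.26 to 2.26 for Hist1h1a, -0.10 to 0.21 for Hist1h1c, -0.17 to 1.61 for Hist1h1d, -0.20 to 0.20 for Hist1h1e, -0.037 to 1.94 for Hist1h2ab, -0.28 to 2.02 for Hist1h2af, -0.16 to 0.34 for Hist1h2be, -0.35 to 1.93 for Hist1h2bh, -0.16 to 2.30 for Hist1h2bk, -0.32 to 1.99 for Hist1h3b, -0.27 to 1.75 for Hist1h3d, -0.16 to 0.97 for Hist1h3f, -0.10 to 0.23 for Hist1h4d, -0.10 to 0.21 for Hist1h4h, -0.19 to 1.78 for Hist1h4k, -0.15 to 0.45 for Hist2h2ac, -0.19 to 1.25 for Hist2h2bb, -0.11 to 0.28 for Hist2h4 and -0.25 to 0.20 for Hist4h4. The slope on Mki67 ran from -0.54 to 0.25 for Hist1h1c, -0.075 to 1.07 for Hist1h1d, -0.57 to 0.34 for Hist1h1e, -0.42 to 0.048 for Hist1h2bc, -0.23 to 0.45 for Hist1h2be, -0.054 to 0.81 for Hist1h3f, -0.43 to 0.29 for Hist1h4c, -0.22 to 0.31 for Hist1h4d, -0.33 to 0.28 for Hist1h4h, -0.31 to 0.48 for Hist2h2ac, -0.15 to 0.95 for Hist2h2bb, -0.30 to 0.36 for Hist2h4, -0.31 to 0.072 for Hist3h2a and -0.63 to 0.34 for Hist4h4. The log2 ratio of summed means ran from -0.16 to 1.06 for H2A, -0.18 to 0.60 for H2B and -0.057 to 1.42 for H3. Members called on Mki67 ran from 0 (without A4) to 45, all genes called on Mki67 from 0 (without A4) to 723, and all genes called between AZ6983 and control from 0 to 27, with 1 without A1, 1 without C6 and 27 without A5. For the sum of the 63 genes against Mki67, r ran from -0.69 to 0.98 and rho from -0.72 to -0.22.

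DESeq2 called 92 genes of all between AZ6983 and control and 67 without A4, and 0 histone genes in both. Over 12 mice it gave an adjusted p to only 18 of the 63 histone genes. It gave no p for 41 of them, and for 418 of all 25284 genes. Its slope called 47 histone genes of 1044 genes in all over 12 mice (5% of all genes), and 3 of 502 without A4 (3%). Library totals in place of TMM gave 2 genes of all, and no filter gave 1129 genes of all on Mki67. With the share of unassigned reads as a covariate Hist1h2bc turned to 0.17 and Hist2h2be to 0.33, and with no treatment group the slopes of Hist1h2bc and Hist3h2a turned to -0.010 and -0.030. For the sum, rho was -0.13 with library totals and turned to 0.52 with the mean log2 CPM of tested genes. The cause of these changes was not tested. The remaining settings were size factors by relative log expression, limma-voom, a mean of 50 counts, 5% FDR and Top2a in place of Mki67; under each, 0 histone genes were called between AZ6983 and control where it applied, and 37 to 45 were called on Mki67 where it applied. No paired analysis was possible because the labels give the groups no shared replicate numbers. Genes under about 1 CPM rest on few counts. The p-values set an effect against the spread between 12 mice, or 11 where 1 was left out.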
